A study of Homo sapiens with 2 samples.

Results

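The YAP/TEAD group described here comprises 10 genes: the coactivators YAP1 and WWTR1 (which encodes TAZ), the DNA-binding factors TEAD1 and TEAD4, the TEAD cofactor VGLL3, the secreted CCN proteins CCN1 and CCN2, and ANKRD1, AMOTL2 and AJUBA. They were chosen by name, with earlier results of these data known. Every probe set that the platform annotation pairs with exactly 1 gene of these symbols was taken. This gave 22 probe sets, and all 10 genes were found among the 19775 genes so named. RNA was measured on 2 Affymetrix arrays, 1 for each of a pair of transfections of KYSE170-luc, an esophageal squamous carcinoma line with a luciferase suffix. One culture received an empty vector and the other an expression plasmid for SOX17, a transcription factor of endoderm and endothelium, and both were collected 12 h later. Both groups were thus transfected cells of the same line, and the share of cells that took up a plasmid is not given in the sources used here. With 1 array per group there was no replicate, no p-value was computed, and each difference below is between these arrays.

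YAP1 and TAZ carry no DNA-binding domain of their own and reach their targets through TEAD factors, which recognise a short motif with the core GGAATG. The Hippo kinases LATS1 and LATS2 phosphorylate YAP1 and TAZ and keep them out of the nucleus, so the activity of the pathway is set largely by protein location, which an RNA array does not measure. CCN1, CCN2 and ANKRD1 are among the targets most used to report that activity, AMOTL2 is both a target and an inhibitor that binds YAP1, and AJUBA is a LIM-domain adaptor that restrains LATS kinases. In squamous epithelium YAP1 is known for its part in growth of the basal layer.

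The promoters of these genes are shown for the TEAD motif, since CCN2 and ANKRD1 are classical TEAD targets. RefSeq windows (GRCh38.p14) matched 7 of the 10 genes, with 10 windows in all. CCN1, TEAD1 and TEAD4 were not matched. Each line gives the 250 bases before an annotated start, 5′ to 3′ on the gene's strand, for CCN2 at chr6:131951373-131951622, ANKRD1 at chr10:90921088-90921337, the downstream of the AMOTL2 starts at chr3:134374448-134374697 and VGLL3 at chr3:86991150-86991399, all on the minus strand. Capitals mark every match, on either strand, to GGAATG, to a loose AP-1 pattern, TGANTCA with any base at N, or to a SOX core, CATTGT.
CCN2: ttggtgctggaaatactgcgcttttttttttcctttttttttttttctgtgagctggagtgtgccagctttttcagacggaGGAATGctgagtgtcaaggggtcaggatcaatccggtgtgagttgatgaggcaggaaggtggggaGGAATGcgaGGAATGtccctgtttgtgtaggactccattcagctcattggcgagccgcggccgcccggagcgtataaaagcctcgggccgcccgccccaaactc
ANKRD1: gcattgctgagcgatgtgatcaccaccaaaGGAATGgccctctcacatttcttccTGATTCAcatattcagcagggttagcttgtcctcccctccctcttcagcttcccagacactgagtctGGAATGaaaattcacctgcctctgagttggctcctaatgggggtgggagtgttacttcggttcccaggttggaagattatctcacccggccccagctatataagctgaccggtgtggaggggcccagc
AMOTL2: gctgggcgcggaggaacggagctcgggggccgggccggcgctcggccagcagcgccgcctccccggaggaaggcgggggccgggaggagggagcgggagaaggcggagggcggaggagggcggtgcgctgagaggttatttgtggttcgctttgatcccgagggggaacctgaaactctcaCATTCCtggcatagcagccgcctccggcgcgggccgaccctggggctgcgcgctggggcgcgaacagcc
VGLL3: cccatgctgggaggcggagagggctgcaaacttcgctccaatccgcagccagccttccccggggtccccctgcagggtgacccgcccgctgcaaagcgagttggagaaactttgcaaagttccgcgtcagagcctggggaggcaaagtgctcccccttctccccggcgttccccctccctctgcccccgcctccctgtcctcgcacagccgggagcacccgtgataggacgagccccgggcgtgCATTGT

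The CCN2 window held 3 TEAD cores, at 169 to 164, 104 to 99 and 95 to 90 bases before the start. The ANKRD1 window held 2 TEAD cores and 1 match to the loose AP-1 pattern (TGATTCA), and AMOTL2, YAP1 and AJUBA held 1 TEAD core each. For AMOTL2 and AJUBA it lay in the more downstream window only. Their upstream windows and the WWTR1 windows had no match to any of these motifs. VGLL3 had no TEAD core in this window and 1 SOX core, in the 6 bases directly before the start. Among 34943 RefSeq windows of the same length, 11.9% held at least 1 TEAD core, 0.942% at least 2 and 0.083% at least 3. The loose AP-1 pattern was found in 6.59% and the SOX core in 9.30%. Of the 10 member windows, 5 held a TEAD core, 1 the loose AP-1 pattern and 1 the SOX core. For AP-1 and SOX this is near the share of all windows. The members include classical TEAD targets by choice, so the TEAD count describes the group and is no independent support. These motifs do not overlap one another in the windows printed. A match is a string of letters and does not show that a factor binds there.

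Before the members, the transfected gene itself gave no clear check of the labels. One SOX17 probe set read 4.5 with the empty vector and 83.8 with SOX17, and the other 19.1 and 6.5. All 4 values lay under an intensity of 95, the 60th percentile over both arrays together, which served as the floor for calling a probe set measured. Both arrays had been scaled to a mean of 500.1 without the extreme 2% at either end, and 10034 genes were measured on both, with a median log2 ratio of 0.03. The poly-A control transcripts, which are spiked into RNA before labelling, read higher on the SOX17 array in 24 of 24 probe sets (median log2 ratio 0.57). Whether these controls bear on the members' ratios was not tested. Intensity at the 3′ over the 5′ end of the GAPDH control was 1.16 with the empty vector and 1.18 with SOX17. For the ACTB control it was 11.6 and 10.4, so the ACTB signal was far stronger at the 3′ end on both arrays. Whether these end ratios bear on differences between probe sets of a gene was not tested. Of the squamous markers 8 of 11 had a probe set named to 1 gene, and all 8 were measured, 5 with a log2 ratio above 0 and 3 below, from -0.47 (PKP1) to 0.56 (KRT16). KRT5 read 247.5 and 273.0, and KRT14 1509.7 and 1814.3. Of the fibroblast markers 1 of 10 was measured (COL1A1, 780.2 and 845.1), of the 8 leukocyte markers with a named probe set 1 (CD79A, 112.0 and 96.9), and of the endothelial markers 0 of 8. The summed intensity of the fibroblast list was 1090 with the empty vector and 1156 with SOX17, that of the leukocyte list 311.6 and 448.9, and that of the endothelial list 224.4 and 230.1. Apart from COL1A1 and CD79A these sums are made of values under the floor, so differences between them carry little information.

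By its brightest probe set every measured member read lower on the SOX17 array, but YAP1, AJUBA, TEAD4 and CCN2 by less than the error of a ratio. The WWTR1 probe sets did not point one way. CCN1, TEAD1 and VGLL3 were lower by at least 1.5-fold. A gene was represented by its brightest probe set, and 9 of the 10 genes were measured on both arrays, all but ANKRD1. All 9 had a log2 ratio (SOX17 over empty vector) below 0, where 45.4% of all measured genes did, and 0 lay above it, where 54.6% did. With the mean over measured probe sets 8 of the 9 lay below 0, where 47.0% of all measured genes did. Of the 9, 3 were at least 1.5-fold lower against 3.19% of all measured genes, 0 were at least 1.5-fold higher against 3.78%, 0 were at least 2-fold lower against 0.329%, and 0 at least 2-fold higher against 0.419%. The members' median log2 ratio was -0.46. Among single probe sets, 17 of the 19 measured lay below 0, against 48.9% of 17364 measured probe sets of all genes, and 4 were at least 1.5-fold lower, against 4.61%. Probe sets of a gene share its transcripts and are not replicates. Since the members were chosen with earlier results of these data known, these shares describe the group and are no independent support.

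The error of a ratio was taken from genes with more than 1 probe set, by comparing the 2 brightest. Over 4574 genes, the SD of 1 log2 ratio was 0.27. By level it was 0.36 in the lowest tertile of measured genes, 0.29 in the middle and 0.21 in the highest, where 7 of the 9 measured members lay. In that highest tertile 1.17% of genes were at least 1.5-fold lower. This SD comes from within the arrays only and leaves out the spread between cultures. It also holds any real difference in what the 2 probe sets of a gene detect, and leaves out error that both share. Each pair was placed in a tertile by its brighter probe set, so an SD by level also holds ratios of dimmer ones. In RNA from whole cultures, fewer cells of a kind and less RNA per cell cannot be told apart.

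**Figure D1:**
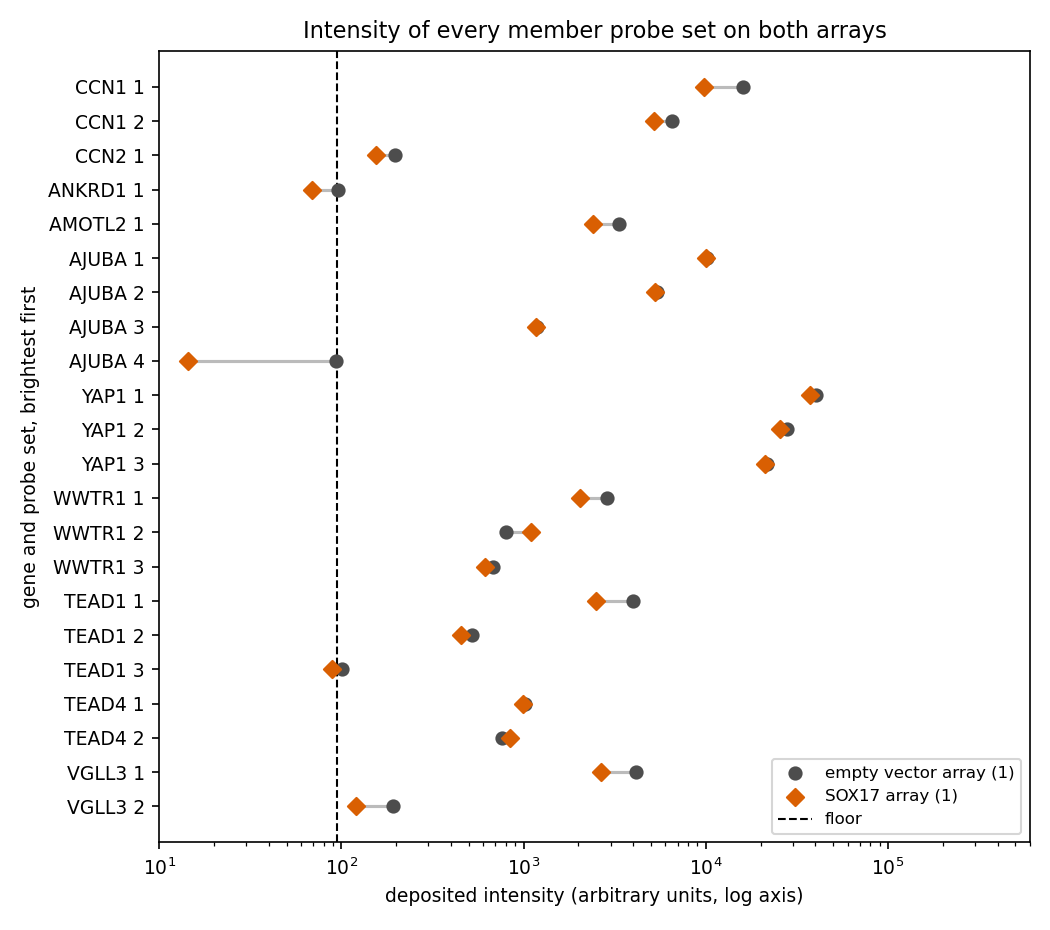
Deposited intensity (log axis) of each of the 22 member probe sets on the empty vector array (grey circles) and the SOX17 array (orange diamonds), with the floor of 95 as a dashed line. Probe sets of a gene are numbered from the brightest, and 2 of the 22 (1 each of WWTR1 and TEAD4) are brighter on the SOX17 array.

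Among the coactivators, YAP1 differed by less than the error of a ratio in the values as deposited. Its brightest probe set read 40261.9 with the empty vector and 37199.1 with SOX17, the next 27883.5 and 25555.3, and the third 21627.9 and 21067.4. The log2 ratios of -0.11, -0.13 and -0.04 are all smaller than the SD of 0.21 at that level. For the brightest probe set the ratio was -0.20 after loess and -0.214 after quantile normalization, and the latter is just past that SD. WWTR1 had 3 probe sets that did not point one way. The brightest read 2855.3 and 2050.2 (log2 ratio -0.48), another 802.4 and 1098.2 (0.45), and the third 675.6 and 611.4 (-0.14). Their mean was -0.056, so no direction is given for WWTR1. The probe set that read higher is one whose ID ends in _s_at, a class designed to match several transcripts. The dimmer CCN1 probe set is of the same class and read lower. Whether the class bears on the sign was not tested.

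Of the TEAD factors, TEAD1 read lower on the SOX17 array, and TEAD4 differed by less than the error of a ratio. TEAD1 read 3979.5 with the empty vector and 2509.0 with SOX17 by its brightest probe set, a 1.59-fold lower value (log2 ratio -0.67). That is 3.16 times the SD at its level, and 2.02% of measured genes had a lower ratio. A dimmer TEAD1 probe set read 517.8 and 454.6 (-0.19), and the last, at 101.0 and 88.4, was under the floor on the SOX17 array. All 3 read lower, but the mean over the 2 measured ones was -0.43, which is short of 1.5-fold. TEAD4 read 1013.4 and 993.2 on one probe set (-0.03) and 760.9 and 840.7 on the other (0.14), both within the SD of 0.29 at that level. The difference between TEAD1 and TEAD4 has no replicate behind it and was not tested.

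VGLL3, a vestigial-like protein that binds TEAD factors through the surface YAP1 also uses, was the most even of the members past 1.5-fold. Its brightest probe set read 4147.1 with the empty vector and 2662.0 with SOX17 (1.56-fold lower, log2 ratio -0.64). The other read 192.9 and 119.8 (1.61-fold lower, -0.69). Both probe sets were lower by nearly the same ratio although their signals were far apart, and 2.34% of measured genes had a lower ratio than its brightest one.

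**Figure D2:**
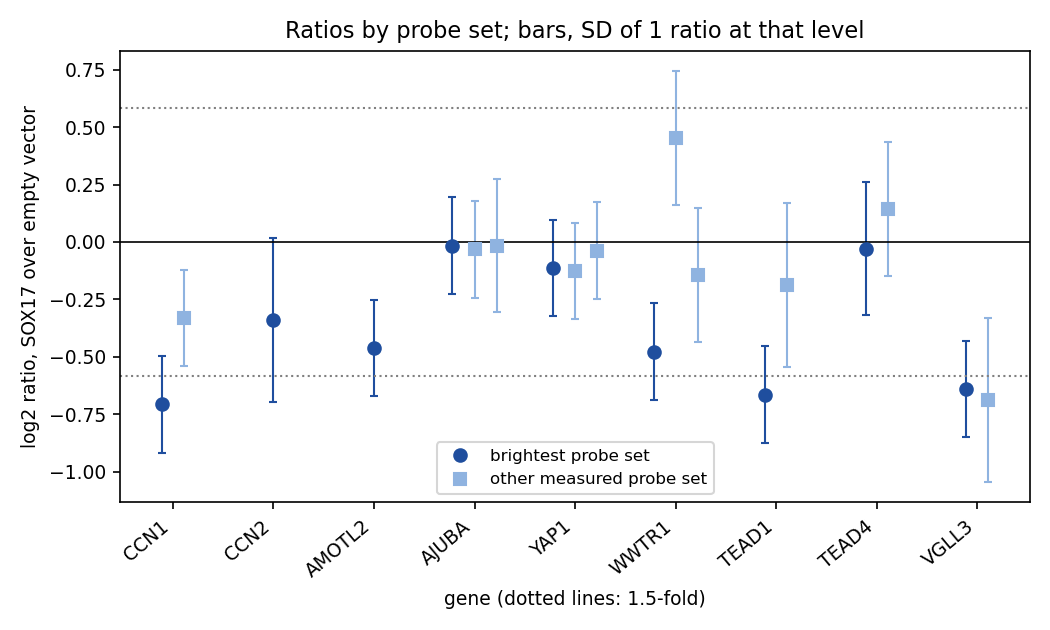
Log2 ratio of the SOX17 over the empty vector array for the 19 measured member probe sets, by gene. Dark circles are the brightest probe set of a gene, light squares the others, bars the SD of 1 ratio at that level and dotted lines 1.5-fold. Both VGLL3 probe sets and 1 each of CCN1 and TEAD1 lie past the lower line, and WWTR1 spans -0.48 to 0.45.

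Of the secreted targets, CCN1 was lower on both of its probe sets. CCN1 is a matricellular protein that binds integrins, and its gene also counts among the immediate early genes that respond first to growth factors and stress. Its brightest probe set read 15944.2 with the empty vector and 9766.5 with SOX17, a 1.63-fold lower value (log2 ratio -0.71). This is 3.36 times the SD at its level, and 1.62% of measured genes had a lower ratio. The other CCN1 probe set read 6548.5 and 5206.1 (1.26-fold lower, -0.33). Their mean of -0.52 is short of 1.5-fold.

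CCN2, also known as connective tissue growth factor, read 196.2 with the empty vector and 155.0 with SOX17 by its single probe set. The log2 ratio of -0.34 is within the SD of 0.36 at that low level. ANKRD1, an ankyrin repeat protein of muscle and of cells under mechanical load, read 95.3 and 68.8, so it reached the floor on the empty vector array only. No fold is given for it. The members whose printed promoter windows hold the most TEAD cores, CCN2 and ANKRD1, are thus those whose signals lay nearest the floor, where these arrays resolve a difference least.

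AMOTL2, an angiomotin family protein of cell junctions, read 3326.4 with the empty vector and 2416.2 with SOX17 by its single probe set (1.38-fold lower, log2 ratio -0.46). The value is 2.19 times the SD at its level and does not reach 1.5-fold. AJUBA differed by less than the error of a ratio, with 10185.9 and 10075.6 on its brightest probe set, 5408.7 and 5289.2 on the next and 1182.2 and 1169.5 on the third. Those 3 log2 ratios ran from -0.03 to -0.02. The last AJUBA probe set read 93.1 and 14.4, under the floor on both arrays, and is given no fold.

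**Figure D3:**
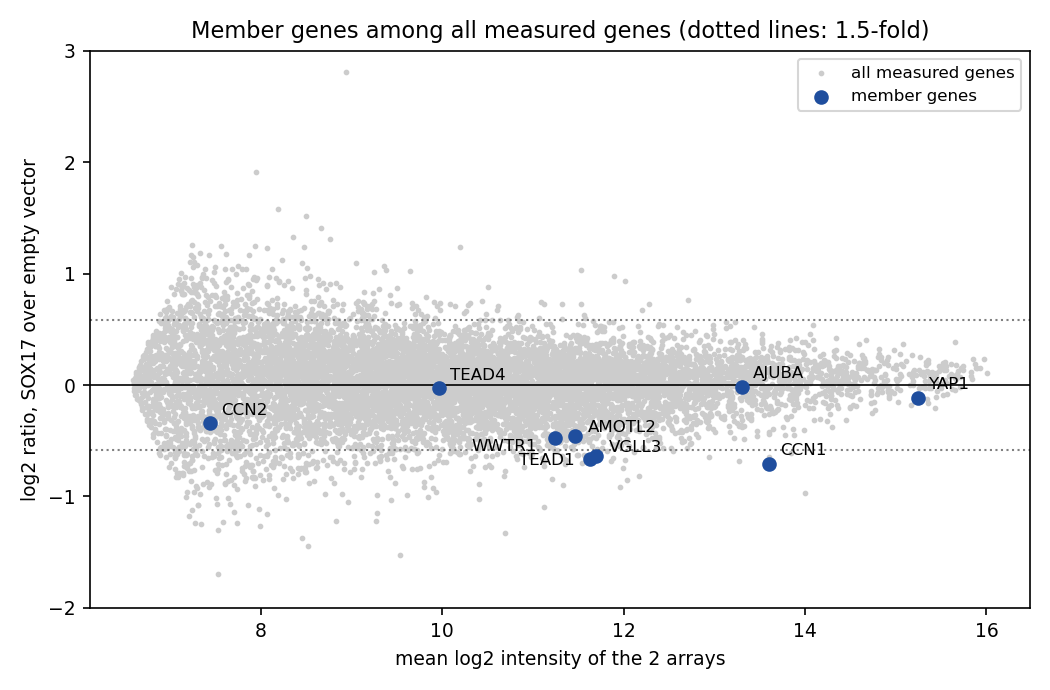
Log2 ratio of the SOX17 over the empty vector array against the mean log2 intensity for the 10034 measured genes (grey) and the 9 measured members (blue, named), with dotted lines at 1.5-fold. CCN1, TEAD1 and VGLL3 lie below the lower line at levels where 1.17% of genes do, while YAP1, AJUBA and TEAD4 lie near 0.

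The other genes of the pathway were described from 3 lists. These were also chosen with earlier results of these data known, so their shares are descriptions too. Among 24 Hippo kinases, scaffolds and upstream regulators, 19 were measured, and 15 of these lay below 0, where 45.4% of all measured genes did, with a median log2 ratio of -0.30. That median was -0.20 with the mean over measured probe sets. By the brightest probe set, at least 1.5-fold lower were 2 of the 19, against 3.19% of all measured genes, and 0 were as much higher, against 3.78%. Of the 55 measured probe sets of this list, 39 lay below 0, where 48.9% of all measured probe sets did. At least 1.5-fold lower were 4 of them, against 4.61%, and 1 was at least 1.5-fold higher. FRMD6, a FERM-domain protein upstream of the kinases, read 4704.9 with the empty vector and 2923.5 with SOX17 (log2 ratio -0.69, and -0.42 on its other probe set). STK3, the kinase MST2, read 3750.5 and 2426.5 (-0.63, but -0.06 on its other probe set). MOB1B, which activates LATS kinases, lay at -0.53 and LATS1 at -0.48, each on 1 measured probe set. LATS2 lay at -0.44 and -0.43 on its measured probe sets. The genes of this list are inhibitors of YAP1 and TAZ for the most part. Their median had the same sign as that of the further targets below, with which the list shares LATS2, AMOTL1 and PTPN14. What these signs mean for the activity of the pathway was not tested.

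Among 24 further YAP/TAZ targets, 22 had a probe set named to 1 gene, and 20 were measured. Of these 17 lay below 0 and 3 above, where 45.4% of all measured genes lay below, with a median of -0.25. The median was -0.13 with the mean over measured probe sets. By the brightest probe set, at least 1.5-fold lower were 2 of the 20, against 3.19% of all measured genes, and 0 were as much higher, against 3.78%. Of the 45 measured probe sets of these targets, 31 lay below 0, where 48.9% of all measured probe sets did. At least 1.5-fold lower were 5 of them, against 4.61%, and 1 was at least 1.5-fold higher. TGFB2, a TGF-beta ligand, read 309.7 with the empty vector and 197.2 with SOX17 (-0.65, and -0.38 on its other probe set). F3, the tissue factor that starts blood clotting, read 18119.3 and 11883.5 (-0.61) on 1 probe set. ASAP1, which acts on ARF GTPases, lay at -0.45, but its 4 measured probe sets ran up to 0.23. AMOTL1, a relative of AMOTL2, lay at -0.44 and ran up to 0.06. LATS2, AMOTL1 and PTPN14 stand on both lists. Without them, 14 of 17 targets lay below 0, with a median of -0.21.

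The remaining TEAD, VGLL and CCN genes gave few values. Of 9 genes 4 were measured, 1 below 0 and 3 above, with a median of 0.07, and 0 were past 1.5-fold. VGLL1 read 330.5 with the empty vector and 385.6 with SOX17 (0.22), yet -0.53 on its other probe set. VGLL4 lay at 0.12, CCN3 at 0.02 and TEAD3 at -0.07. TEAD2, VGLL2, CCN4, CCN5 and CCN6 were not measured on both arrays. The sign of this list's median turned to -0.029 with the mean over probe sets.

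**Figure D4:**
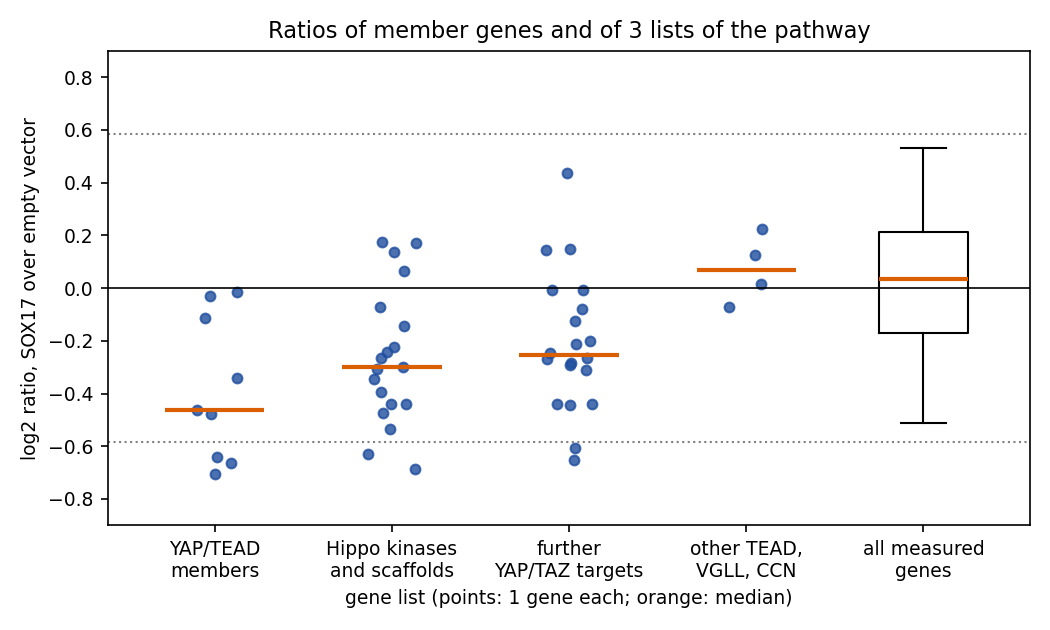
Log2 ratio of each measured gene (points) and the median (orange line) for the 9 YAP/TEAD members, 19 Hippo genes, 20 further targets and 4 other family genes, beside a box of all 10034 measured genes (quartiles, with whiskers at the 5th and 95th percentile). The medians of the first 3 groups lie at -0.46, -0.30 and -0.25, and that of all measured genes at 0.03.

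The probe sets of a gene were also compared in sign. Of the 7 members with several measured probe sets, 2 (WWTR1 and TEAD4) had probe sets on both sides of 0, where 51.3% of all genes with several measured probe sets did. CCN1, AJUBA, YAP1, TEAD1 and VGLL3 kept 1 sign on every measured probe set. Of these, VGLL3 alone was past 1.5-fold on each of them, with its dimmer probe set near the floor.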

How the data were processed

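The values are linear intensity readings that the authors deposited, 1 for each probe set on each array. Per the submitters' processing notes GCOS produced them. Its version, algorithm and detection calls are not given in the sources used here. Of 54675 probe sets, GEO's platform annotation paired 41091 with 1 gene, and 0 symbols needed an update through RefSeq. Intensities were used as deposited. The log2 ratio is log2 of the SOX17 over the empty vector intensity. A gene was measured when its brightest probe set (by mean log2 intensity) was at or above the floor of 95 (60th percentile) on both arrays. Genes were counted by size at 1.5-fold, with no test, since each group has 1 array, which limits precision. The SD of 1 ratio is that of the difference between the 2 brightest measured probe sets of a gene, divided by the square root of 2. Its tertile of level is that of the brighter probe set. Beside all members, the text names, from each pathway list, up to 5 measured genes whose ratios were farthest from 0, and for the marker lists the genes KRT5 and KRT14. KRT16, PKP1, COL1A1, CD79A, PTPN14 and the unmeasured family genes were named after their values were seen. The members and lists were chosen with earlier results of these data known. Alternatives were other scalings, floors, an offset, rules for probe sets and a 2-fold threshold. Scripts were tested on simulated data and used Python 3.11.15, numpy 2.4.6, pandas 2.3.3, statsmodels 0.14.6 and matplotlib 3.10.9.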

Additional observations from a re-analysis of the deposited data

How the results depend on the processing

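No paired analysis was possible because each group has 1 array. CCN1, TEAD1 and VGLL3 were at least 1.5-fold lower on the SOX17 array after centring on the median, quantile normalization, loess (span 0.4), 50 added to every intensity, floors at the 50th or 75th percentile or none, and when probe sets of the _x_at and _s_at kinds were left out. The count of 3 dropped to 1 (VGLL3) with the mean over measured probe sets and to 0 at 2-fold. That mean also turned TEAD4 to 0.057 and the median of the other TEAD, VGLL and CCN genes to -0.029, and moved WWTR1 from -0.48 to -0.056. It moved the median of the further YAP/TAZ targets from -0.25 to -0.13 and that of the Hippo list from -0.30 to -0.20. YAP1 moved from -0.11 to -0.20 after loess and -0.214 after quantile normalization. The members' median ran from -0.49 (centred) to -0.34 (mean over probe sets). With no floor the SD of 1 ratio was 1.14, so ratios under the floor carry little information. Signals near the floor limit what CCN2 and ANKRD1 can show, and without a second array per group the spread between cultures is unknown.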
